A study of Mus musculus with 12 samples.

Results

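The genes described here are the mouse zinc finger genes whose symbol is Zfp followed by a number, measured in naive CD4 T cells sorted by a reporter of basal T cell receptor signalling. The table lists 10073 genes, of which 271 have such a symbol and 269 were taken as members. They were chosen by symbol and by a mean of at least 0.5 RPKM (reads scaled to gene length and library depth) over the 12 libraries. Zfp36, which encodes an RNA-binding protein of the CCCH finger type, was left out by name. Zfp316 (0.501 RPKM) and Zfp516 (0.583) lay just inside that mean, and Zfp608 (0.323) lay outside.

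The mice carried the transgene Tg(Nr4a1-EGFP)GY139Gsat, in which regulatory sequence of Nr4a1 drives green fluorescent protein (GFP), and the Foxp3tm1Flv allele, a red fluorescent Foxp3 reporter, with C57/BL6 named as background. Cells were taken from spleen and lymph nodes of untreated animals and sorted as CD4 positive, without the Foxp3 reporter and with low CD44. The sort gave 4 populations. Those with Ly6C were A, with low GFP, and B, with intermediate GFP. Those without Ly6C were C, with intermediate GFP, and D, with high GFP. Each came from 3 mice, and libraries carry the letter and the mouse number (A1 to D3). GFP reports transcription from the transgene, not receptor signalling itself.

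Most Zfp genes encode C2H2 zinc finger proteins, in which each finger folds around a zinc ion held by cysteine and histidine residues, and arrays of fingers read DNA sequence. Many also carry a KRAB domain, which recruits the corepressor TRIM28 and through it the histone methyltransferase SETDB1 and heterochromatin proteins, and such proteins are known for silencing retroelements and keeping imprints. KRAB zinc finger genes multiplied by local duplication and sit in clusters of related copies.

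Base composition divides the members, so the coding bases of the first finger are shown for members that were lower in B than in A (Zfp758, Zfp942 and Zfp943) and for GC-rich members (Zfp219 and Zfp335). The sequences run 5′ to 3′ and come from GENCODE M21 transcripts, with the cysteine and histidine codons that hold the zinc in capitals. The first finger here is the first match with a fixed spacing of those codons, so an earlier finger of another spacing would be passed over.
Zfp758: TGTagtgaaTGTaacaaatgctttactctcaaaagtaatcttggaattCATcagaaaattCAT
Zfp942: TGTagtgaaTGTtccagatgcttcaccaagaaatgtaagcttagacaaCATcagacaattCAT
Zfp943: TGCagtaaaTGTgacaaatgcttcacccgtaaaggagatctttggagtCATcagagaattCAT
Zfp219: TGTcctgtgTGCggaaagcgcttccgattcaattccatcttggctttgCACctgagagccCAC
Zfp335: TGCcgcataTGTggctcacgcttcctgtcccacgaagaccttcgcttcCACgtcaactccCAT
Each stretch has 63 bases, of which 28.6% were G or C in Zfp758, 36.5% in Zfp942 and 39.7% in Zfp943, against 54% in Zfp219 and 57.1% in Zfp335. Over the whole coding frame the shares were 35.9%, 35.6% and 35.6% for the AT-rich genes, and 64.7% and 59.3% for the GC-rich ones.

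Over the longest transcript of each gene, the median GC content was 43.6% for the 269 members and 49.4% for the 9846 tested genes with a value. A C2H2 finger pattern was found in 263 of the 268 members with a coding transcript, with a median of 11 fingers and at most 36. A KRAB box pattern was found in 112 members, and in 155 with 1 mismatch allowed. Median GC content was 41.4% with the KRAB pattern and 47.0% in the 156 members without it. By RefSeq gene order 160 of 268 placed members had another member as a neighbour, with at most 2 protein-coding genes between them, and 93 lay in 13 runs of 4 or more. The longest runs were on chromosome 13 (18 members, Zfp712 to Zfp273), chromosome 17 (15, Zfp677 to Zfp946) and chromosome 7 (14, Zfp84 to Zfp146).

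Some members are near copies, and how reads that fit several genes were counted is, for this table, not given in the sources used here. Zfp97 and Zfp960 encode proteins that are 96.3% identical, Zfp273 and Zfp85 95.1%, and Zfp455 and Zfp456 90.6%. For 11 members, over 50% of the 50-base words of the longest transcript occurred in a transcript of another gene. They include Zfp935 (100%), Zfp433 (94.2%), Zfp960 (84.5%) and Zfp97 (83.1%), whose values are therefore uncertain.

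Depth recovered from the RPKM steps was 6.31 to 9.07 M reads (M, mega) per library, and the members' mean count had a median of 206 reads. The 12 measured CD4 T cell markers summed to 2644 to 2988 RPKM. C3 stood apart, with 2 measured B cell markers summing to 247 RPKM (6.69 to 28.2 elsewhere), 4 plasma cell markers to 871 (22.4 to 34.3) and 2 cycling markers to 24.3 (1.81 to 7.18). The 2 measured myeloid markers summed to 5.74 to 9.67 RPKM, Cd8b1 (CD8 T cells) ran from 9.94 to 15.96 and Klrd1 (NK cells) from 6.70 to 16.96. The 4 dendritic cell markers looked for were not among the genes listed. The 2 erythroid markers summed to 8.13 to 22.4 RPKM in A1, B1, C2 and D2 and to 133 to 176 in the other libraries. A1 and B1 went against their GFP labels in the transcript of Nr4a1, the gene behind the reporter. It was 57.7 RPKM in A1 against 26.1 and 22.9 in A2 and A3, and 36.0 in B1 against 73.3 and 64.6 in B2 and B3. C, labelled intermediate like B, had 26.3, 28.3 and 23.4 RPKM, near A2 and A3. D, labelled high, had 58.7, 64.7 and 67.8 RPKM, near B2 and B3. The 4 regulatory T cell markers split likewise, at 32.8 to 45.7 RPKM in A1, B2, B3 and the D libraries and 8.20 to 13.4 in the rest. Dntt, which adds bases at receptor gene junctions in developing lymphocytes, did not split A and B in that way, with 13.2 to 15.2 RPKM in A and 5.51 to 7.91 in B, and it was 12.5 to 13.98 in C and 4.98 to 6.16 in D. Ly6c1, which encodes a Ly6C antigen, went against the Ly6C labels of B and C, with 37.1 to 50.2 RPKM in B and 59.3 to 67.0 in C, beside 58.1 to 72.6 in A and 38.2 to 48.4 in D. A to D therefore mean the libraries so labelled. In bulk RNA, fewer cells of a type and less RNA per cell cannot be told apart.

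Zfp transcripts were of modest level, with a median of 6.96 RPKM over members against 12.8 over tested genes with a GC value. Zfp445, a KRAB protein that helps to keep imprints, had the highest mean at 53.3 RPKM, and its libraries ran from 47.5 in C3 to 59.5 in A3, the populations overlapping. Zfp740, Zfp207, Zfp871 and Zfp592 followed, with means of 50.3, 46.1, 41.9 and 40.7 RPKM. Zfp207 is known for its part in chromosome alignment on the spindle. Summed over members, RPKM ran from 2323 in C3 to 2686 in A3.

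The group shifted from library to library by small amounts. Each member's log2(RPKM + 0.5) was set against its own 12-library mean, and the median deviation was 0.051 for A1, 0.057 for A2, 0.071 for A3, 0.058 for C1 and 0.032 for D1. It was below 0 in the other 7 libraries, down to -0.095 for C3, while the median over all tested genes stayed between -0.025 and 0.013. Members with the KRAB pattern spread further, from -0.147 to 0.148, than those without it, from -0.080 to 0.042. These groups also differ in GC content, as given above, and 43 of the 156 without the pattern match with 1 mismatch. The part of the KRAB domain was not tested. All A libraries were high and all B libraries low, whereas C and D each held 1 high library, from mouse 1, and 2 low ones.

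The same libraries stood apart in how transcript GC content related to level. Across the 9846 genes, which share their library and are not independent replicates, the deviation correlated with GC content at r = -0.37, -0.36 and -0.40 in the A libraries, -0.21 in C1 and -0.20 in D1. In the other 7 libraries r was 0.14 to 0.28, and the sign of the Zfp median was opposite to that of r in 12 of 12 libraries. The members have a lower median GC content than the tested genes and are among the genes behind r. The opposite signs follow largely from this and are not 12 separate results. Members under 40% GC had median deviations of 0.231, 0.254 and 0.313 in the A libraries, and -0.224, -0.131 and -0.131 in the B libraries. Other genes of that GC class had 0.148, 0.128 and 0.155, and -0.117, -0.066 and -0.066.

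**Figure D1:**
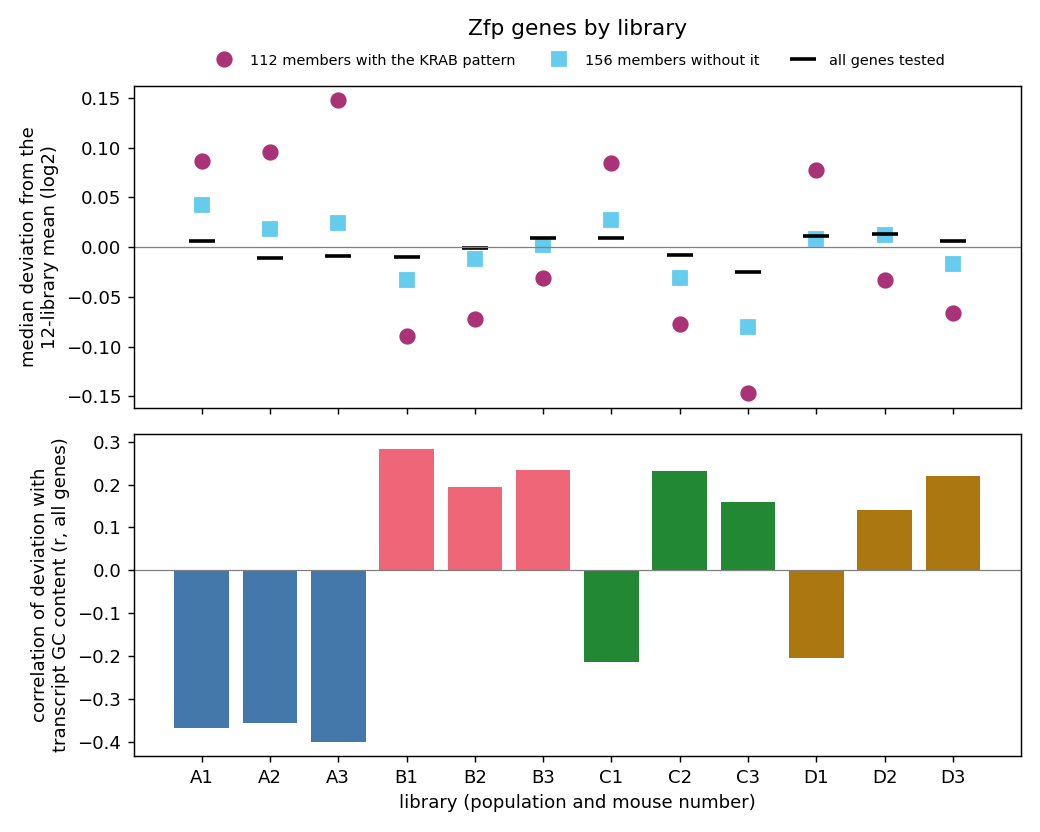
Upper panel, median deviation (log2) from the 12-library mean in each library, for 112 Zfp members with the KRAB pattern, 156 without it and all tested genes. Lower panel, correlation (r) over genes of that deviation with transcript GC content; A1 to A3, C1 and D1 have r below 0 and high KRAB medians, and the other 7 libraries the reverse.

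B against A sets, by label, intermediate against low GFP where Ly6C is present. It showed a set of Zfp transcripts that were lower in B. Of the 269 members 19 (7.06%) were lower and 0 higher at an adjusted p under 0.05 (limma with Benjamini-Hochberg adjustment over all genes), where 1.66% of the 10021 tested genes were lower and 0.569% higher. At an unadjusted p under 0.05, 78 members were lower (29.0%, against 12.3% of genes) and 15 higher (5.58%, against 10.8%). All B values lay below all A values in 88 members (32.7%, against 15.8% of genes) and above them in 19 (7.06%, against 13.4%). The median log2 difference was -0.063 over members and 0.014 over all genes. Cd8b1 and Klrd1 did not overlap between these populations either. Cd8b1 was 13.3, 13.6 and 14.6 RPKM in A and 11.5, 9.94 and 10.9 in B, and Klrd1 16.4, 16.9 and 16.96 and 13.1, 9.18 and 6.70. Their part in the Zfp differences was not tested. That Zfp genes were frequent among those lower in B was known when the members were chosen, so these counts describe it and do not test it anew.

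Zfp758 (Entrez 224598), a KRAB gene with 12 fingers, differed most. It stood at 8.36, 9.63 and 10.5 RPKM in A, 4.46, 4.27 and 4.48 in B, 6.96, 5.92 and 4.55 in C, then 7.71, 6.11 and 4.95 in D, from 89 to 259 reads a library. The A libraries were above all others and the B libraries below all others. B differed from A by -1.02 ± 0.16 (log2 ± SE), with an adjusted p of 0.0367 in limma.

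Other members of the chromosome 17 run also passed. Zfp942 (Entrez 73233) stood at 16.97, 17.8 and 19.0 RPKM in A and 9.40, 9.98 and 8.83 in B. The difference was -0.89 ± 0.16 (limma adjusted p = 0.0367), and the C and D libraries, at 9.26 to 14.9 RPKM, lay below A. Zfp943 (Entrez 74670) was 14.7, 14.2 and 16.001 RPKM in A and 9.10, 8.64 and 7.22 in B, a difference of -0.81 ± 0.17 (limma adjusted p = 0.0452). Zfp946 went from 3.07 ± 0.436 RPKM in A to 1.55 ± 0.344 in B (mean ± SD, n = 3; log2 difference -0.80 ± 0.16), and Zfp51 from 23.4 ± 1.70 to 14 ± 0.689 (-0.72 ± 0.14); both passed. Zfp994, at 5.70 ± 0.808 and 2.98 ± 0.133, passed with the A and B libraries fitted alone (limma adjusted p = 0.0163) but not with 12 libraries (0.0701).

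**Figure D2:**
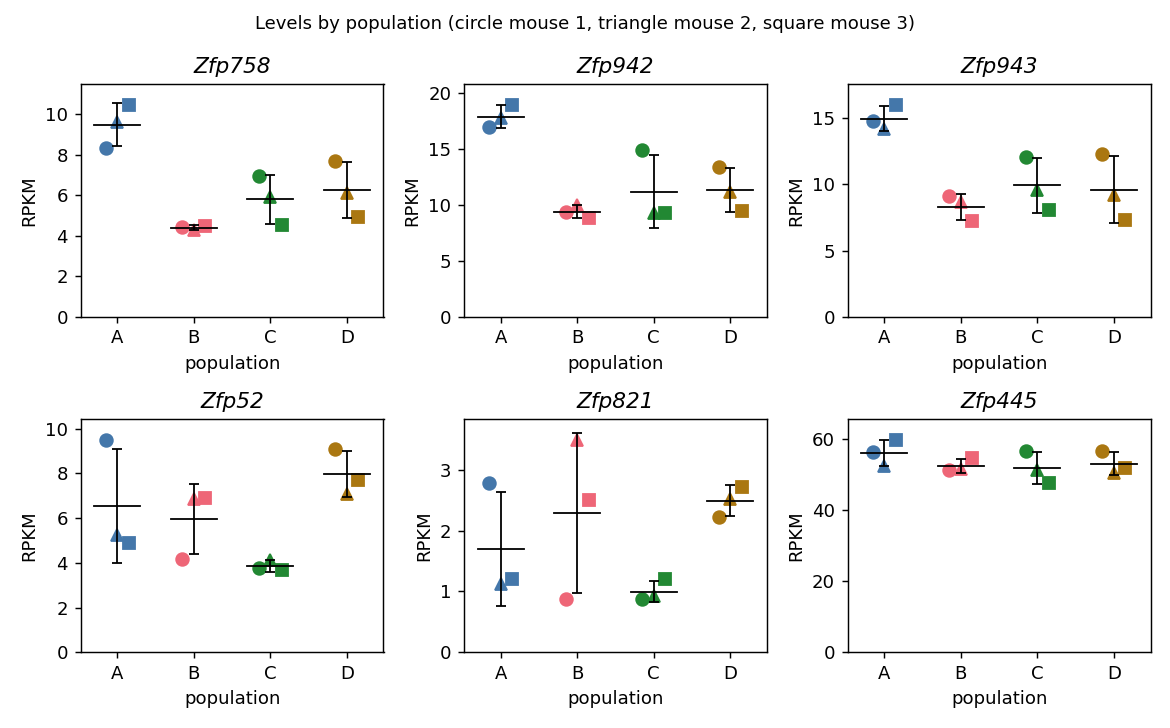
RPKM of 6 members by population, with circles for mouse 1, triangles for mouse 2 and squares for mouse 3, a line at the mean and bars for the SD (n = 3). Zfp758, Zfp942 and Zfp943 are highest in A, Zfp52 and Zfp821 are higher in D than in C with A1 and B1 apart from their populations, and Zfp445 overlaps across populations.

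Start regions of this run are shown because some of its genes are paired head to head and these start regions are near copies. The windows are RefSeq starts on GRCm38.p6, 250 bases before to 50 after the annotated start, plus strand, 5′ to 3′. Capitals mark the bases that also lie in the window of the partner on the minus strand, which is Zfp942 for Zfp943 and Zfp944 for Zfp758.
Zfp943, chr17:21962309-21962608: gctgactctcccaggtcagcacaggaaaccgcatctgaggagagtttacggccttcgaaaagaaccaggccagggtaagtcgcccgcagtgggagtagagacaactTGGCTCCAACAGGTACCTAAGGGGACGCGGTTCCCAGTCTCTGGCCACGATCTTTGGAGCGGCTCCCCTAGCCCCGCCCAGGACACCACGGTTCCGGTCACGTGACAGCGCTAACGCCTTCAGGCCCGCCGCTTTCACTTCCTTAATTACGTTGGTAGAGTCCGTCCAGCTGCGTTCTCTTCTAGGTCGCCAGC
Zfp758, chr17:22361213-22361512: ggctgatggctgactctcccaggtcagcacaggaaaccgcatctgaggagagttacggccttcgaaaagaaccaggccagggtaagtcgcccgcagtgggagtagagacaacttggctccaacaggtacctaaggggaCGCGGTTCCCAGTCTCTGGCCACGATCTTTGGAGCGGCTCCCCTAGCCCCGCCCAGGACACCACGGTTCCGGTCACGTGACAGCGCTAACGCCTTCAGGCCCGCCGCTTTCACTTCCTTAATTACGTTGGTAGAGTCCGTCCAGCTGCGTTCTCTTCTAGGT
Over 292 aligned bases the windows were identical at 292, with 1 gap base inside the alignment. The starts of Zfp943 and Zfp942 lie 95 bases apart and those of Zfp758 and Zfp944 63. Zfp944 differed by -0.54 ± 0.14 and did not pass (limma adjusted p = 0.0611), beside -1.02 for its partner. In the RefSeq table these were the member windows that overlapped head to head.

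Motif letters were looked for on both strands in 276 windows of 229 members. CCGGAAG, a core of sites for ETS factors, was in 21.4% of member windows, 20.03% of 10321 windows of tested genes and 8.86% of all 32851 windows. By gene, 6 of the 15 members lower in B with a window held it. So did 53 of all 229 members (23.1%) and 1898 of 8142 tested genes (23.3%). Whether the 15 differ from these was not tested. TGCGCA was in 11.6% of member windows, 14.7% of those of tested genes and 7.76% of all. For CGCGAGA these shares were 5.43%, 5.86% and 2.56%, and for TATAAA 6.16%, 6.52% and 13.6%. No motif contains another. Median GC content of the windows was 55.3% for members and 61% for tested genes.

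The other members that passed lay outside this run. On chromosome 17, Zfp40 fell from 3.62 ± 0.151 RPKM in A to 2.04 ± 0.207 in B (log2 difference -0.70 ± 0.15), and the near copies Zfp97 (-0.63 ± 0.12) and Zfp960 (-0.60 ± 0.14) also fell. On chromosome 13, Zfp935 went from 13.9 ± 0.768 to 7.22 ± 0.348 RPKM (-0.90 ± 0.17), and Zfp759 (-0.52 ± 0.11) and Zfp748 (-0.44 ± 0.10) fell within the long run there. Zfp433 on chromosome 10 differed by -0.85 ± 0.15 and Zfp958 on chromosome 8 by -0.64 ± 0.14. Smaller decreases were found for Zfp120 (-0.48 ± 0.10), Zfp60 (-0.43 ± 0.08), Zfp386 (-0.43 ± 0.10) and Zfp950 (-0.42 ± 0.10). Zfp24, a SCAN-domain protein with a known role in myelination, was 16.5 ± 0.209 RPKM in A and 13.1 ± 0.573 in B (-0.32 ± 0.06). Zfp638, which acts in RNA processing, was 28.1 ± 1.101 and 23.9 ± 0.715 RPKM (-0.23 ± 0.05), from 1576 to 2518 reads a library. Limma adjusted p-values of the 19 ran from 0.0367 to 0.0487.

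**Figure D3:**
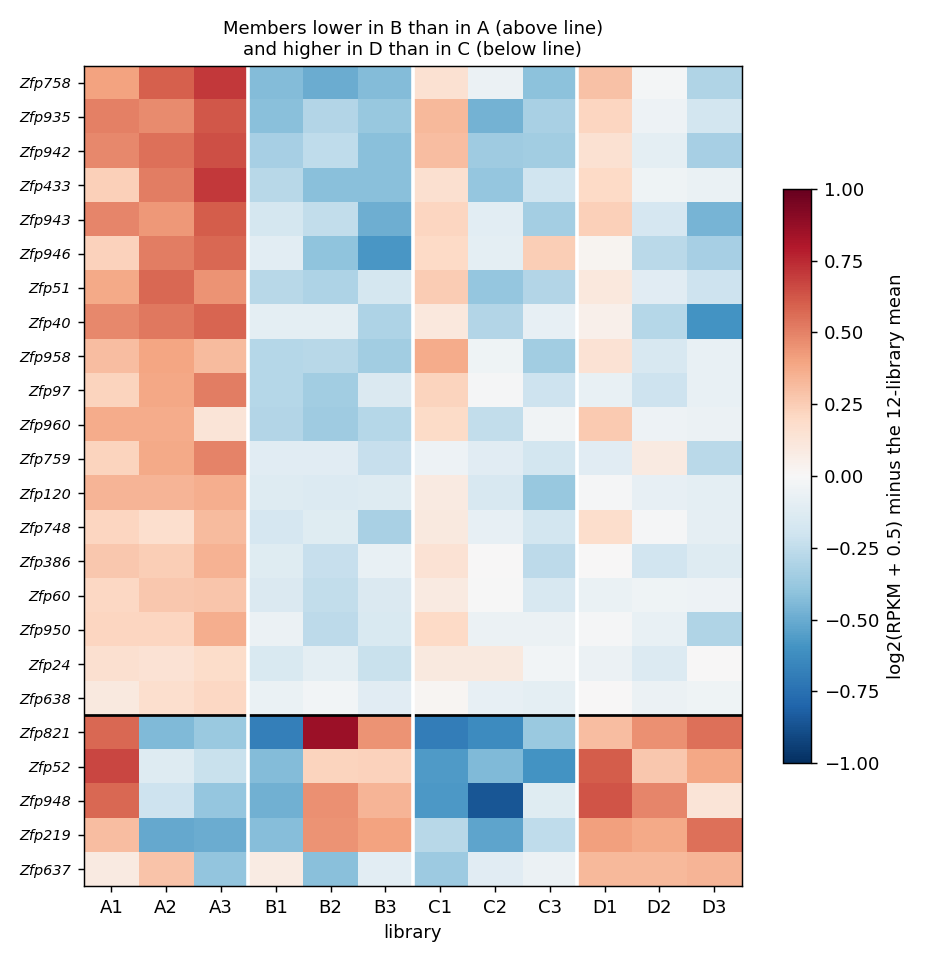
Log2(RPKM + 0.5) minus the 12-library mean, by library, for the 19 members lower in B than in A (above the line, by size of the difference) and 5 members higher in D than in C when those 6 libraries were fitted alone (below the line). The 19 are above their mean in A1 to A3 and below it in B1 to B3, and Zfp821, Zfp52, Zfp948 and Zfp219 are above theirs in A1, B2, B3 and D1 to D3.

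The members that passed were AT-rich. Their GC content ran from 35.4% to 40.8%, and 10 of 19 had the KRAB pattern (16 with 1 mismatch), against 102 of the other 250 (139). Across the 269 members GC content and the B minus A difference had a correlation over genes of r = 0.71, and across the 9846 genes of r = 0.56. Under 40% GC the median difference was -0.45 in 65 members and -0.23 in 547 other genes, and 14 members (21.5%) and 59 other genes (10.8%) were lower. From 40% to under 44% the medians were -0.17 in 74 members, 5 of which were lower, and -0.13 in 1483 other genes. From 52% up they were 0.0945 in 55 members and 0.104 in 3510 other genes, and 0 members were lower. With the trend in GC content and length removed from each library, 0 of 269 members passed in limma, against 0.0203% of genes higher and 0.0102% lower, while 10 members were higher (3.72%, against 4.9% of genes) and 34 lower (12.6%, against 6.61%) at an unadjusted p under 0.05. Zfp758 then stood at -0.68 (limma adjusted p = 0.0973). The median of members under 40% GC was then -0.19, against 0.00929 in other genes of the class.

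**Figure D4:**
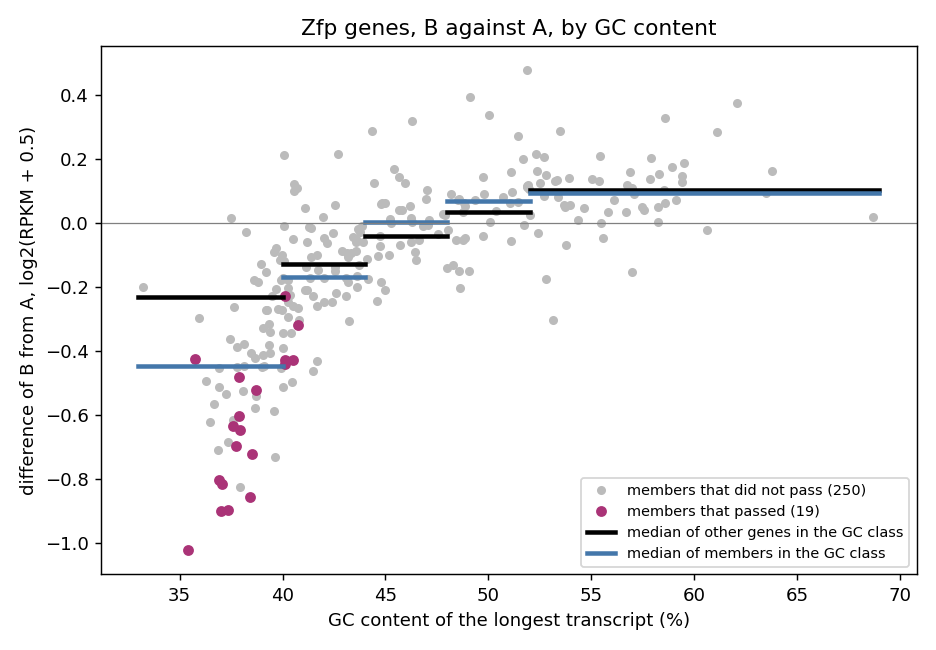
Difference of B from A, log2(RPKM + 0.5), against GC content (%) of the longest transcript, with 1 point per member and the 19 that passed in purple. Bars are medians of members (blue) and of other genes (black) in each GC class; under 40% they stand at -0.45 and -0.23, and from 52% up they nearly coincide.

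Runs of neighbouring genes also differed from each other. The median difference of B from A was -0.45 in the chromosome 13 run and -0.54 in the chromosome 17 run. Their median GC content was 39.1% and 38.5%, with the KRAB pattern in 12 of 18 and 15 of 15. Near 40% GC the median difference was smaller. It was -0.27 in the run from Zfp60 to Zfp850 (5 of 5 with the pattern). It was -0.12 in the runs from Zfp560 to Zfp846 (5 of 5) and from Zfp472 to Zfp563 (4 of 4). In the chromosome 7 run from Zfp84 to Zfp146, with 46.2% GC and the KRAB pattern in 10 of 14, it was -0.0392. In the chromosome 7 run from Zfp579 to Zfp784, with 57.9% GC and the pattern in 0 of 4, it was 0.157. All B values lay below all A values for 15 of 18 members of the chromosome 13 run, 12 of 15 on chromosome 17 and 1 of 14 in the longer chromosome 7 run, against 15.8% of all genes.

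**Figure D5:**
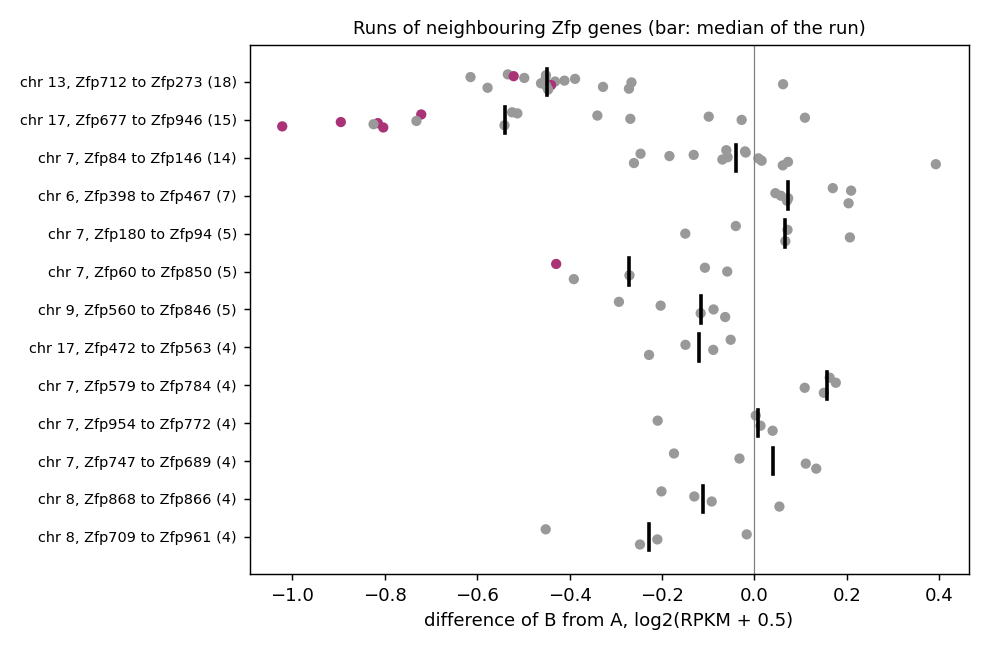
Difference of B from A, log2(RPKM + 0.5), for each member of the 13 runs of at least 4 neighbouring Zfp genes, with chromosome, first and last member and size of the run on the vertical axis. Bars are run medians and purple points passed the test; the chromosome 13 run (18) and chromosome 17 run (15) lie furthest to the left.

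The B against A calls were sensitive to the fit. With the mouse number as a block 0 members passed (0.02% of genes lower and 0.0% higher), the 19 having limma adjusted p-values of 0.0547 to 0.0764 at the same differences. The count was 0 without A2, A3, B2, B3 or D2, 12 without A1, 11 without B1 or D3, 9 without C2, 17 without D1, 32 without C3 and 42 without C1 (3.53% of genes lower, 1.07% higher). For the single libraries other than C1 the share of all genes is not given. With the 6 libraries alone 39 members were lower and 0 higher (3.18% and 0.609% of genes). Without A1 and B1 together 22 were lower (8.18%, against 4.26% of genes) and 8 higher (2.97%, against 6.66%), and 18 of the 19 were among the lower ones. Without C3 as well, 33 were lower (12.3%, against 7.13% of genes) and 13 higher (4.83%, against 9.22%).

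D against C sets, by label, high against intermediate GFP in the absence of Ly6C. In the fit of 12 libraries 0 members passed, where 0.0% of genes were higher and 0.00998% lower, while 19 members were higher (7.06%, against 11.1% of genes) and 7 lower (2.60%, against 7.02%) at an unadjusted p under 0.05 in limma. With these 6 libraries alone 5 members (1.86%) were higher and 0 lower, against 3.35% and 1.45% of genes. Without A1 and B1, 5 were higher and 0 lower, against 5.05% and 2.58%. These shares are below those of all genes.

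Of the 5, Zfp52, Zfp948, Zfp821 and Zfp219 shared a profile unlike that of the members lower in B. Zfp52 (Entrez 22710), a KRAB gene of the chromosome 17 run, was 3.76, 4.15 and 3.66 RPKM in C and 9.09, 7.09 and 7.73 in D. Its difference was 0.95 ± 0.22 with 12 libraries (limma adjusted p = 0.106), and it passed with 6 alone (limma adjusted p = 0.00147). It was 9.49 RPKM in A1 against 5.26 and 4.91 in the other A libraries, and 4.17 in B1 against 6.84 and 6.89. Its neighbour Zfp948 was 1.06, 0.786 and 1.64 RPKM in C and 3.10, 2.76 and 2.04 in D (0.93 ± 0.29), from 14 to 67 reads a library. Both genes were high in A1, B2, B3 and D1 to D3, the libraries with high Nr4a1.

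Zfp821 was 0.867, 0.926 and 1.20 RPKM in C and 2.22, 2.53 and 2.72 in D. Its difference was 1.00 ± 0.34 with 12 libraries (limma adjusted p = 0.154), and it passed with 6 alone (limma adjusted p = 0.00344). It was 2.78 RPKM in A1 and 0.872 in B1, against 1.12 and 1.20 in A2 and A3 and 3.48 and 2.499 in B2 and B3. Over the 12 libraries it had the widest spread of the 269 members (SD 0.578 on the log2 scale), before Zfp948 (0.504) and Zfp994 (0.458). Zfp219, a GC-rich member, was 6.58 ± 0.717 RPKM in C and 11.8 ± 0.767 in D (0.80 ± 0.24), and 10.6 in A1 against 5.83 and 5.89 in A2 and A3. Zfp637 was 2.93 ± 0.371 in C and 4.37 ± 0.0359 in D (0.51 ± 0.17) and did not share the profile, with A2 (4.20) above A1 (3.62). The regulatory T cell markers were high in the same libraries as the other 4 genes, and their part in these differences was not tested. With the GC and length trend removed the differences were 0.90 for Zfp52, 0.96 for Zfp821 and 0.76 for Zfp219.

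In the fit of 12 libraries Zfp937, at 1.49 ± 0.252 RPKM in C and 2.15 ± 0.234 in D, followed Zfp52 and Zfp219 by p among the higher ones and passed in neither fit. The smallest p-values among the lower ones belonged to Zfp14 (-0.31 ± 0.10), Zfp658 (-0.26 ± 0.09) and Zfp110 (-0.14 ± 0.05), none of which passed (limma adjusted p = 0.139, 0.146 and 0.151).

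D against A compares, by label, high GFP without Ly6C to low GFP with it. In limma 0 members passed, where 0.0% of genes were higher and 0.00998% lower, while 11 members were higher (4.09%, against 10.8% of genes) and 53 lower (19.7%, against 8.18%) at an unadjusted p under 0.05. All D values lay below all A values in 69 members (25.6%, against 11.7% of genes) and above them in 22 (8.18%, against 14.1%). Zfp40 (-0.81 ± 0.15), Zfp120 (-0.41 ± 0.10) and Zfp97 (-0.49 ± 0.12) had the smallest p among the lower ones, at a limma adjusted p of 0.151 each, and Zfp382 (0.40 ± 0.13), Zfp513 (0.28 ± 0.09) and Zfp219 (0.68 ± 0.24) among the higher ones. This comparison shares the A libraries with B against A. Without A1 and B1, 13 members were lower (4.83%, against 2.76% of genes) and 8 higher (2.97%, against 6.08%). Without C3 as well these were 24 (8.92%, against 4.84%) and 10 (3.72%, against 8.7%). With the 6 libraries alone 0 passed (0.00998% of genes higher, 0.02% lower).

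C against B varies, by label, Ly6C at intermediate GFP. The transcripts did not match this, with Ly6c1 at 59.3 to 67.0 RPKM in C and 37.1 to 50.2 in B. Nr4a1 was 23.4 to 28.3 RPKM in C and 36.0 to 73.3 in B. In limma 0 members passed, with 0.00998% of genes higher and 0.0% lower, and 8 members were higher (2.97%, against 5.49% of genes) and 9 lower (3.35%, against 7.9%) at an unadjusted p under 0.05. Zfp658 had the smallest p, at 6.88 ± 0.486 RPKM in B and 8.80 ± 0.643 in C (0.33 ± 0.09, limma adjusted p = 0.285), followed by Zfp110 (0.18 ± 0.05) and Zfp24 (0.21 ± 0.06). Zfp236 (-0.17 ± 0.05), Zfp28 (-0.25 ± 0.08) and Zfp831 (-0.20 ± 0.07) led among the lower ones. Without A1 and B1, 2 were higher (2.76% of genes) and 7 lower (4.98%). With the GC and length trend removed 0 members passed in C against B, D against A or D against C, where at most 0.0102% of genes passed in a direction.

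The step from C to D was also tested against the step from A to B. In limma 0 members passed, as did 0.0% of genes in either direction, and 69 members were higher (25.7%, against 9.72% of genes) and 3 lower (1.12%, against 5.32%) at an unadjusted p under 0.05. Zfp758 (1.12 ± 0.22), Zfp433 (1.02 ± 0.21) and Zfp712 (0.85 ± 0.18) had the smallest p, at a limma adjusted p of 0.168 each. Zfp574 (-0.35 ± 0.13), Zfp341 (-0.38 ± 0.16) and Zfp369 (-0.24 ± 0.11) led in the other direction. The count rested on C1, since 26 members (9.66%, against 2.35% of genes) were higher and 0 lower (0.259%) without that library.

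Members with well-known roles follow as values, chosen for those roles. Among silencers, Zfp809, which recognises murine leukaemia virus in embryonic cells, ran from 11.1 to 14.04 RPKM over the 12 libraries. Zfp932, which acts on endogenous retroviruses and is AT-rich (37.3% GC), was 19.97, 20.01 and 21.7 RPKM in A and 10.2, 15.1 and 13.002 in B. It did not pass with 12 libraries (-0.68 ± 0.20, limma adjusted p = 0.0766) and passed with those 6 alone (0.0333). Zfp568, a KRAB repressor of a placental Igf2 transcript, was 3.96 ± 0.299 RPKM in A and 3.98 ± 0.184 in B.

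Zfp335, which is needed for T cell maturation, was 33.2 ± 0.924 RPKM in A and 36.8 ± 0.756 in B (0.15 ± 0.05) and did not pass (limma adjusted p = 0.121). Zfp318, which governs IgD splicing in B cells, ran from 5.45 to 6.57 RPKM over the 12 libraries and was lowest in C3, the library with B cell markers. Zfp598, a ubiquitin ligase that detects collided ribosomes, was 28.6 ± 1.24 RPKM in A and 31.2 ± 0.604 in B (0.13 ± 0.06, limma adjusted p = 0.252).

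Of the silencing cofactors that KRAB proteins work with, 34 of 36 listed were measured, and 1 was lower and 0 higher in B than in A in limma (all genes 1.66% and 0.569%), with a median log2 difference of 0.0725. With the 6 libraries alone 2 were lower, Sumo2 (limma adjusted p = 0.0431) and Fam208a (0.0437), and 0 higher, where 3.18% of all genes were lower and 0.609% higher. Without A1 and B1, 4 were higher and 1 lower, where 6.66% of all genes were higher and 4.26% lower. Cbx5, which encodes the heterochromatin protein HP1α, was 18.3 ± 0.386 RPKM in A and 15.5 ± 0.454 in B (-0.23 ± 0.05, limma adjusted p = 0.0463, 0.0726 with the mouse block and 0.0529 with the 6 libraries alone). Trim28 was 61.8 ± 0.877 and 66.8 ± 1.13 RPKM (0.11 ± 0.04, adjusted p = 0.117), and Setdb1 19.9 ± 0.751 and 21.9 ± 0.630 (0.13 ± 0.05, 0.147). Sumo2 (-0.20 ± 0.05, adjusted p = 0.0528) and Mta1 (0.16 ± 0.04, 0.0724) had the next smallest p. In D against C 0 passed with 12 libraries, and with 6 alone the DNA methyltransferase gene Dnmt3a (0.50, limma adjusted p = 0.00174) and the deacetylase gene Hdac1 (0.23, 0.0345) were higher. In that fit 3.35% of all genes were higher.

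Other zinc finger groups, taken by symbol, had median differences of B from A above that of the Zfp members. Of 36 Zbtb genes 1 was lower and 0 higher (median 0.0161, median GC content 48.8%), and of 15 Zc3h genes 1 was lower and 0 higher (0.0163, 50.1%), beside 1.66% and 0.569% of all genes. Without A1 and B1, 1 Zc3h gene was lower and 2 higher, and 1 Zbtb gene was lower and 0 higher. In that fit 1 Zscan gene was lower and 1 Klf gene higher, beside 4.26% of all genes lower and 6.66% higher. With the 6 libraries alone 2 Zbtb genes and 1 Zc3h gene were lower, beside 3.18% of all genes. Of 10 Zscan (0.0921), 8 Zkscan (0.0802), 11 Klf (0.00883) and 3 Zfp36 family genes (-0.00690) 0 passed in limma with 12 libraries. In the other 3 comparisons 0 genes of these groups passed with 12 libraries. With the D and C libraries alone, 1 Zscan gene was lower, and 1 Zc3h and 1 Zfp36 family gene were higher. Of all genes 1.45% were lower and 3.35% higher in that fit.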

How the data were processed

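RNA of 12 libraries was measured, and the authors deposited 1 table of RPKM values with gene length in bases, per the file headers. Per the labels' protocols, sorted cells went through SMART-seq v4 and NexteraXT. The submitters' processing notes name STAR and the builds mm9 and mm10, without roles, and counter, annotation and strand use are, for this table, not given in the sources used here. Reads recovered from the RPKM steps were whole, to 0.1 read, for 100% of low values looked at, and served for depth and 1 alternative.

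The 10021 genes at or above 0.5 RPKM on average entered limma 3.58.1 (R 4.3.3) as log2(RPKM + 0.5), a scale that understates changes of low genes. A mean-variance trend was used and no block, all 12 libraries shared 1 spread estimate, and p-values were Benjamini-Hochberg adjusted over all genes within each comparison (threshold 0.05). Tested on simulated data for B against A with 10020 genes, it recovered 38% of genes raised 1.5-fold, 92% raised 2-fold, 100% raised 4-fold and 90% lowered to 0.5-fold, of 50 each. The simulated counts had a single fixed spread, and held no GC shift and no library apart from its population. These shares therefore do not give the recovery in the real libraries.

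Libraries with the same mouse number come from 1 animal by the labels. Their deviations from population means correlated at -0.072 on average (18 pairs, 1 over 0.1), against 0.032 between numbers, in pairs from different populations. Deviations cancel out within each population, so these averages are tied to each other and are not an independent comparison. Members, lists and tests were chosen with earlier results of these data known. Named are members passing in B against A, the 5 of highest mean, those next to the 0.5 RPKM limit, the 3 of smallest p per direction in the other comparisons, up to 8 per direction passing with 6 libraries alone (of 39 in B against A, those are among the 19 but for Zfp994), the 3 most variable and the 3 pairs most alike in protein. Members given for known roles were added to that rule. Finger and KRAB patterns were read in the longest open reading frames of GENCODE M21 transcripts (Biopython 1.88), GC content in the longest transcript of each symbol, and gene order and start windows in RefSeq tables.

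Alternatives were pseudocounts of 0.1 and 1, no filter or 5 RPKM, median and quantile scaling, 6 libraries alone, mouse block (fixed or random), no trend, robust moderation, limma-voom on recovered reads, removal of the GC and length trend, and leaving out libraries.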

Additional observations from a re-analysis of the deposited data

How the results depend on the processing

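For B against A, where 19 members passed, the count was 39 with the 6 libraries alone, 30 without A1 and B1 (22 lower, 8 higher), 46 without A1, B1 and C3 (33 lower, 13 higher), and 0 with no mean-variance trend, with the GC and length trend removed, or with that removal and the replicate block together. With the replicate block alone, fixed or random, it was 0, and with each library left out in turn 0 to 42. The differences of the 19 stayed negative in every alternative that gave a value, which were 28 for 15 members and 27 for 4 (Zfp40, Zfp759, Zfp960 and Zfp946, not tested under the 5 RPKM filter), each passing in 12 to 18 of them. For D against C (0 members) the count was 5 with the 6 libraries alone, 5 without A1 and B1, 6 without A1, B1 and C3, and 0 to 3 with a library left out. For D against A (0) it was 21 without A1 and B1, 34 without these and C3 (24 lower, 10 higher), and 0 to 6 with a library left out (6 without A1). For C against B (0) these were 9 (2 higher and 7 lower, where 2.76% and 4.98% of all genes were so), 10 and 0 to 2 (2 without B1). For the difference of steps (0) a left-out library gave 0 to 26. The replicate block changed no other count, and the cause of these changes was not tested. Leaving out A1 and B1 also raised the share of all genes that passed in B against A, D against C, D against A and C against B. Where no share of all genes is given here or above, a count is not set against all genes and is no result about the members. Where an arm kept 2 libraries, the spread was pooled over populations. Low members rest on as few as 12 reads in a library.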
